A study of Mus musculus with 7 samples.

Results

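Autophagy genes were followed across 3 sorted spleen cell populations of the mouse. They were 10 genes, chosen by name with earlier results of these data known, and measured by 16 probes of an Illumina MouseRef-8 bead array. Of these, 9 genes (12 probes) were above background on enough arrays to be tested, out of 7425 genes tested in all. The 10 genes were Becn1, Atg7, Atg3, Atg5, Atg12, Map1lc3b, Gabarap, Gabarapl2, Sqstm1 and Trp53inp1. All mice were C57BL/6J, labelled female and 10 weeks old, and carried no transgene or deletion named in the labels. There were 2 plasma cell samples (gated as B220low CD138+) and 3 plasmablast samples (B220mid CD138+), both taken at day 3 after lipopolysaccharide (LPS), a bacterial cell wall product that drives B cells to secrete antibody. The 2 naive B cell samples (B220+ CD43-) came from naive mice. The labels do not say whether each sample came from a separate animal, and the spread behind the p-values may therefore be technical.

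Autophagy encloses cytoplasm, aggregates or pieces of organelles in a double membrane that fuses with lysosomes. A Beclin 1 (Becn1) lipid kinase complex starts the membrane, and ubiquitin-like conjugation reactions then attach the ATG8 proteins, LC3 and GABARAP, to it, where receptors such as p62 (Sqstm1) bring in their cargo. In mice, loss of Atg5 from B cells is known to reduce long-lived plasma cells, in which autophagy holds the endoplasmic reticulum (ER) in check. The arrays measured transcripts, and gave no measure of conjugated protein or of flux through the pathway.

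Probes above background (detection p under 0.01 against the array's negative controls) numbered 8817 to 9930 per array, and Pearson's r over tested probes was at least 0.993 within groups and at most 0.826 between groups. The labels were checked against marker lists through their summed normalized signal on the linear scale. The 8 antibody-secreting cell markers (Xbp1, Prdm1, Sdc1 and others) summed to 44342 to 47200 in plasma cells, 65926 to 68105 in plasmablasts and 7987 to 8083 in naive B cells. The 8 naive B cell markers with a probe summed to 12444 to 14122 in plasma cells, 35614 to 38448 in plasmablasts and 86073 to 90385 in naive B cells, although the defining marker Pax5 was not above background on any array. Markers of other cells also differed between the populations. The 9 macrophage and monocyte markers with a probe summed to 48319 to 49189 in plasma cells, 1081 to 1851 in plasmablasts and 31110 to 36847 in naive B cells. In plasmablasts 8 of these 9 were not above background on any array, and in plasma cells Vcam1 and Mertk were not. Single markers did not share the order of the sum: between plasma cells and naive B cells 2 of the 9 were called higher in plasma cells (Lyz2 and Cd14) and 6 lower (C1qa, C1qb, C1qc, Vcam1, Mertk and Fcna), with a median log2 difference of -2.78. Lyz2 averaged 15.33 in plasma cells, 10.00 in plasmablasts and 12.07 in naive B cells, and Fcna averaged 6.14 in plasma cells, 4.97 in plasmablasts and 12.77 in naive B cells. The 8 neutrophil markers summed to 8918 to 10837 in plasma cells, 1537 to 5503 in plasmablasts and 307 to 381 in naive B cells. Of the 8, 4 were not above background on any plasma cell array (Cxcr2, Elane, Ngp and Ltf), 5 on any plasmablast array and 7 on any naive B cell array. The 8 red cell and platelet markers with a probe summed to 302 to 303 in plasma cells, 270 to 280 in plasmablasts and 24238 to 32849 in naive B cells, and none was above background on any plasma cell or plasmablast array. For T and NK cells, 9 markers summed to 3818 to 4012 in plasma cells, 939 to 1459 in plasmablasts and 422 to 443 in naive B cells. Among them Cd4, Cd8a and Ncr1 were not above background on any array. The 5 dendritic cell markers summed to 229 to 250 in plasma cells, 192 to 198 in plasmablasts and 226 to 260 in naive B cells. In such bulk samples fewer cells of a type and less RNA per cell cannot be told apart. The part of RNA from other cells in the differences below was not tested for any gene, whether or not a marker list is named beside it.

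**Figure D1:**
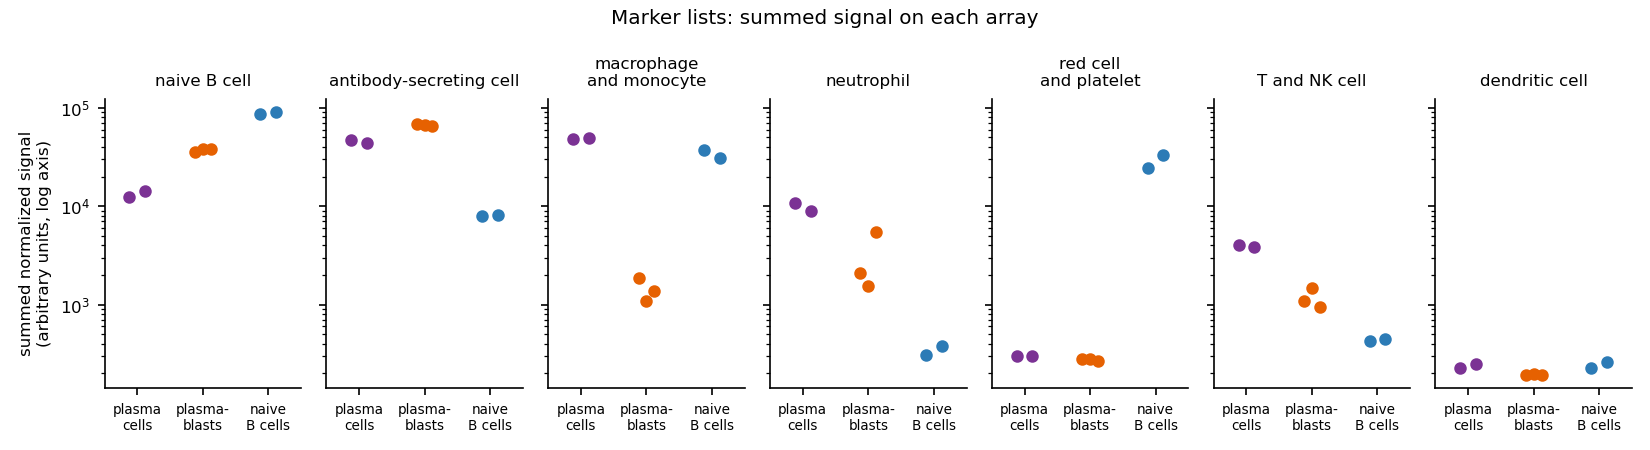
Summed normalized signal (linear scale, drawn on a log axis) of each marker list on each array, with plasma cells, plasmablasts and naive B cells side by side and each point 1 array. The macrophage and monocyte sums lie between 48319 and 49189 in plasma cells, 1081 and 1851 in plasmablasts, and 31110 and 36847 in naive B cells.

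Most autophagy genes differed little between the populations, and 2 genes stood out by the size of their differences. Trp53inp1 was the gene with the widest spread of group means, 5.25-fold between plasmablasts and naive B cells. Atg7 was detected in plasma cells and naive B cells but on no plasmablast array. The group means of the other 7 tested genes lay within 1.26-fold (Sqstm1) to 1.95-fold (Atg12) of each other. Between plasmablasts and naive B cells limma called 2 of the 9 tested genes higher and 3 lower (Benjamini-Hochberg adjusted p under 0.05), or 55.6%, where 72.5% of all 7425 genes were called, 35.0% higher and 37.5% lower. In plasma cells 5 were higher and 1 lower than in naive B cells, or 66.7%, against 70.4% of all genes (32.9% higher and 37.5% lower). Against plasmablasts 5 were higher and 2 lower in plasma cells, or 77.8%, against 74.3% of all genes (28.5% higher and 45.8% lower). These shares are near the background, so the size and direction of each gene's difference carry the description. The 3 comparisons share samples, and their values are therefore given side by side.

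The median absolute log2 difference of the 9 genes was 0.33 between plasmablasts and naive B cells, against 0.62 over all genes. For plasma cells it was 0.32 against naive B cells and 0.40 against plasmablasts, where all genes gave 0.61 each time. In signed terms the median of the 9 genes was -0.08 between plasmablasts and naive B cells, where that of all genes was -0.02. For plasma cells against naive B cells the signed median was 0.27 (all genes -0.08). For plasma cells against plasmablasts it was 0.40 (all genes -0.22). The median of all genes depends on the scaling. With cyclic loess it was -0.01 for plasma cells against plasmablasts and 0.09 against naive B cells, and the medians of the 9 genes were then 0.57 and 0.43. With scaling to the 75th percentile the 9 genes had medians of 0.16 for plasma cells against plasmablasts (all genes -0.31) and 0.34 against naive B cells (all genes -0.06). Genes called higher made up 52.6% of all calls between plasma cells and plasmablasts with cyclic loess and 38.3% with quantile normalization. Between plasma cells and naive B cells they made up 56.8% with cyclic loess and 46.7% with quantile normalization. Between plasmablasts and naive B cells scaling to the 75th percentile gave medians of 0.01 for the 9 genes and 0.08 for all genes.

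**Figure D2:**
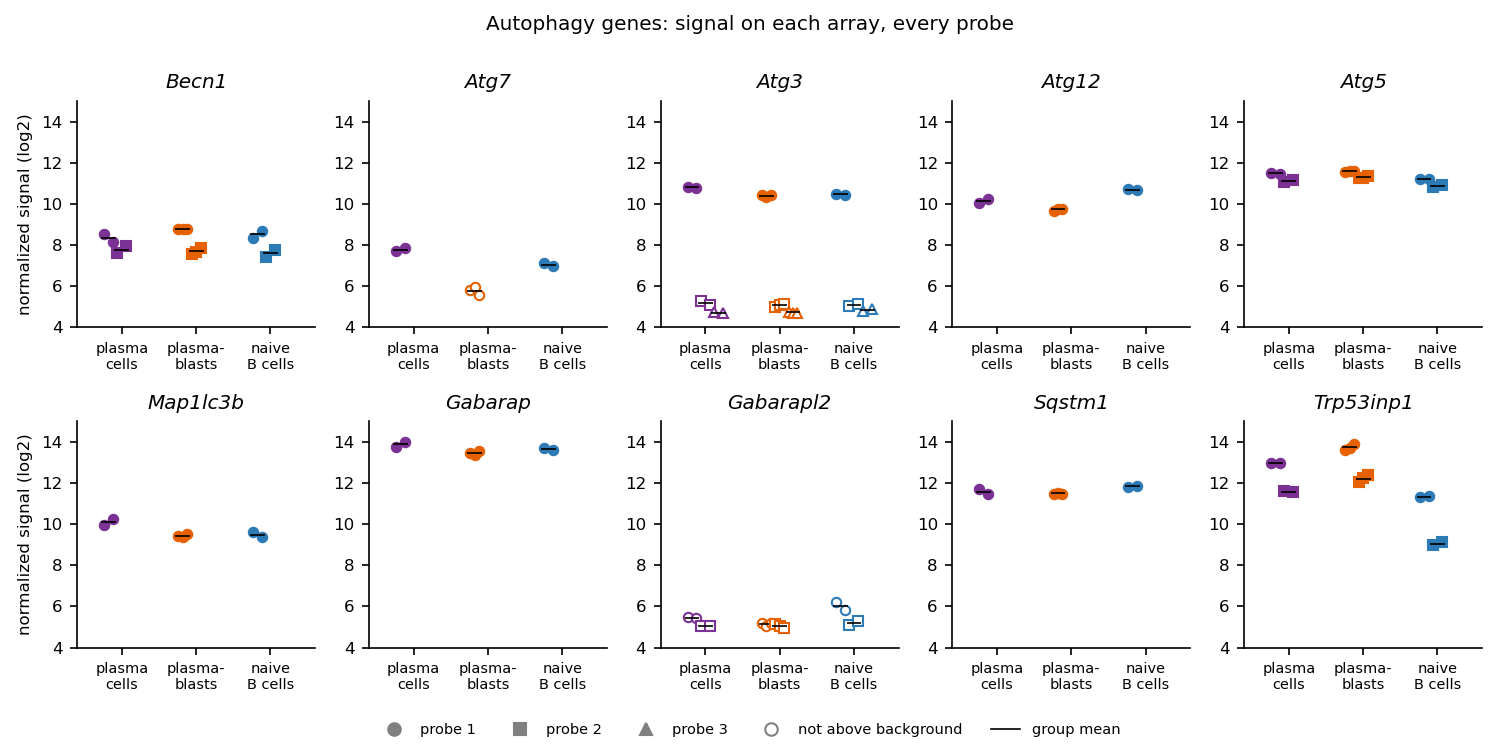
Normalized log2 signal of every probe of the autophagy genes on each array (open symbols, not above background; lines, group means), with plasma cells, plasmablasts and naive B cells from left to right in each panel. Trp53inp1 separates naive B cells (11.30 and 11.37 on its first probe) from plasmablasts (13.60 to 13.88), and Atg7 is below background on all 3 plasmablast arrays.

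Trp53inp1, a p53 target whose product binds ATG8 proteins and takes part in autophagosome formation, was higher in both LPS populations than in naive B cells. Its first probe (ILMN_2506012) stood at 12.97 and 12.97 in plasma cells, 13.60, 13.70 and 13.88 in plasmablasts, and 11.30 and 11.37 in naive B cells on the normalized log2 scale. On the scanner's own scale these were intensities of 9306 and 9898 in plasma cells, 11331, 12358 and 14266 in plasmablasts, and 2577 and 2935 in naive B cells. All 3 plasmablast arrays lay above both plasma cell arrays, and all of these above both naive B cell arrays. The second probe (ILMN_2971479) read 11.59 and 11.56 in plasma cells, 12.06, 12.22 and 12.37 in plasmablasts, and 8.97 and 9.11 in naive B cells, the same order without overlap.

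Between plasmablasts and naive B cells Trp53inp1 rose 5.25-fold by the first probe (log2 difference 2.39, 95% confidence interval 2.15 to 2.63, adjusted p = 2.96e-07) and 9.05-fold by the second (3.18, 2.92 to 3.43, adjusted p = 1.23e-07). The absolute differences of these probes ranked 787 and 356 among the 10113 tested probes, so many others differed more. In plasma cells Trp53inp1 rose 3.11-fold over naive B cells by the first probe (1.64, 1.37 to 1.90, adjusted p = 4.79e-06) and 5.80-fold by the second (2.54, 2.25 to 2.82, adjusted p = 6.14e-07). Against plasmablasts it fell in plasma cells by 0.76 log2 units by the first probe (interval -0.99 to -0.52, adjusted p = 0.000249) and by 0.64 by the second (-0.90 to -0.39, adjusted p = 0.000939). The 2 probes thus gave the same direction in each comparison, with a wider distance to naive B cells on the dimmer one. The antibody-secreting cell markers had the same order of summed signal, with plasmablasts above plasma cells and both above naive B cells. Of these 8 markers, 4 were called lower and none higher in plasma cells than in plasmablasts. Against naive B cells 7 were called higher in plasma cells and 8 in plasmablasts. Their relation to Trp53inp1 was not tested.

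Becn1 encodes Beclin 1, a subunit of the class III phosphatidylinositol 3-kinase complex that marks the site of membrane formation. Its first probe (ILMN_3018758) read 8.52 and 8.15 in plasma cells, 8.80, 8.76 and 8.80 in plasmablasts, and 8.36 and 8.70 in naive B cells. Plasma cell and naive B cell arrays overlapped, and the plasmablast arrays lay just above both. The second probe (ILMN_3090581) read 7.59 and 7.97 in plasma cells, 7.58, 7.65 and 7.84 in plasmablasts, and 7.43 and 7.77 in naive B cells, with overlap between all groups. By the first probe Becn1 fell in plasma cells against plasmablasts by 0.45 log2 units (-0.78 to -0.12, adjusted p = 0.0192). The second probe gave 0.09 for that comparison (adjusted p = 0.617), so the probes disagreed. The call on the first probe was lost with cyclic loess (-0.20, adjusted p = 0.248), without plasma cell replicate 2 (-0.26, adjusted p = 0.155) and with the replicate number as a block (-0.44, adjusted p = 0.055). Against naive B cells the first probe gave 0.25 in plasmablasts (-0.07 to 0.58, adjusted p = 0.139) and -0.20 in plasma cells (-0.55 to 0.16, adjusted p = 0.284), neither called.

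Conjugation starts with ATG7, the E1-like enzyme that activates both ATG12 and the ATG8 proteins. Its probe (ILMN_1246724) read 7.69 and 7.83 in plasma cells, 5.81, 5.95 and 5.56 in plasmablasts, and 7.12 and 6.96 in naive B cells. The groups did not overlap. All plasma cell and naive B cell arrays were above background, and the 3 plasmablast arrays were not, with detection p of 0.103, 0.0664 and 0.127. The plasmablast level is therefore known only as a bound. Here and below, an adjusted p beside a bound is that of the fitted difference, and no bound was tested. Atg7 was at least 2.13-fold higher in plasma cells than in plasmablasts (adjusted p = 3.92e-06) and at least 1.29-fold lower in plasmablasts than in naive B cells (adjusted p = 3.92e-05). In plasma cells Atg7 rose 1.65-fold over naive B cells (log2 difference 0.72, 0.39 to 1.05, adjusted p = 0.00205). Without background correction the log2 differences were 0.92 in plasma cells against plasmablasts, 0.40 in plasma cells against naive B cells and -0.52 in plasmablasts against naive B cells, all still called. The signal was low in every group, and a probe not above background does not show that the transcript was missing. Of the 9 macrophage and monocyte markers, 8 were called higher and none lower in plasma cells than in plasmablasts, 2 higher and 6 lower in plasma cells than in naive B cells, and all 9 lower in plasmablasts than in naive B cells. The part of such RNA in the Atg7 differences was not tested.

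ATG3 is the E2-like enzyme that passes ATG8 proteins to the membrane lipid. Of its 3 probes, only the first (ILMN_2651781) was above background, at 10.81 and 10.78 in plasma cells, 10.43, 10.33 and 10.41 in plasmablasts, and 10.50 and 10.44 in naive B cells. The plasma cell arrays lay above the rest, and plasmablasts and naive B cells were next to each other without overlap. In plasma cells Atg3 rose 1.32-fold over plasmablasts (log2 difference 0.40, 0.21 to 0.59, adjusted p = 0.00258). Across 19 alternative settings Atg3 rose there by 0.33 to 0.63 log2 units, with 0.63 from cyclic loess. Over naive B cells it rose 1.25-fold in plasma cells (0.32, 0.11 to 0.53, adjusted p = 0.0131), but that result missed the threshold when naive B cell replicate 2 was left out (0.0611). Plasmablasts and naive B cells differed by -0.08 (-0.27 to 0.11, adjusted p = 0.415). The other 2 probes (ILMN_2805580 and ILMN_2595188) were not above background on any array, so the gene rests on 1 probe.

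ATG12 is the ubiquitin-like protein that is joined to ATG5, and its transcript, unlike those of Atg7, Atg3 and Atg5, was highest in naive B cells. The Atg12 probe (ILMN_2663570) read 10.04 and 10.22 in plasma cells, 9.67, 9.74 and 9.77 in plasmablasts, and 10.74 and 10.65 in naive B cells. The 3 groups did not overlap, with plasmablasts lowest. In plasmablasts Atg12 fell 1.95-fold against naive B cells (log2 difference -0.97, -1.19 to -0.75, adjusted p = 3.09e-05). In plasma cells it fell 1.48-fold against naive B cells (-0.56, -0.81 to -0.32, adjusted p = 0.00148). Plasma cells were 1.32-fold higher than plasmablasts (0.40, 0.18 to 0.62, adjusted p = 0.00516). All 3 calls held in each of the 19 alternative settings that were run. Over these settings the plasma cell difference from plasmablasts ran from 0.31 to 0.61, with 0.61 from cyclic loess.

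ATG5, the partner of ATG12 in the complex that directs ATG8 to the membrane, differed little. Its first probe (ILMN_2998135) read 11.52 and 11.45 in plasma cells, 11.57, 11.62 and 11.60 in plasmablasts, and 11.22 and 11.23 in naive B cells. The second probe (ILMN_2998139) read 11.08 and 11.14 in plasma cells, 11.24, 11.26 and 11.37 in plasmablasts, and 10.84 and 10.91 in naive B cells. Both probes placed plasmablasts highest and naive B cells lowest, without overlap. In plasmablasts Atg5 rose 1.30-fold over naive B cells by the first probe (log2 difference 0.38, 0.19 to 0.56, adjusted p = 0.00321) and 1.33-fold by the second (0.41, 0.21 to 0.61, adjusted p = 0.00293). In plasma cells the first probe was called 1.20-fold higher than in naive B cells (0.27, 0.06 to 0.47, adjusted p = 0.0271) and the second was not called (0.23, 0.01 to 0.45, adjusted p = 0.0591). The first probe's call was lost without either naive B cell array (adjusted p = 0.0883 and 0.0816), without plasma cell replicate 1 (0.0888), in a fit of those groups alone (0.0615) and with the replicate block (0.0605). Scaling moved these values, to 0.58 in plasmablasts with the 75th percentile and 0.43 in plasma cells with cyclic loess. Plasma cells and plasmablasts differed by -0.11 by the first probe (-0.30 to 0.08, adjusted p = 0.249). Thus Atg5 and Atg12, whose products form 1 conjugate, had opposite directions in plasmablasts against naive B cells.

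A 300-base window around the gene start, 250 bases before it and 50 after, was given by RefSeq (build GRCm38.p6) for 7 of the 10 genes, all but Becn1, Atg12 and Trp53inp1. Of 4 motifs searched on both strands, the E-box core CACGTG is the centre of the element bound by TFEB and TFE3, which drive lysosome and autophagy genes. It occurred in 3 of the 7 windows, those of the conjugation genes Atg5, Atg7 and Atg3, and in 7.15% of 32851 windows of all genes. The 150 bases before the start of these genes are shown on the gene's strand, 5′ to 3′, with the E-box core in capitals, because they hold each match. They lie at chr10:44268189-44268338 (Atg5), chr6:114670946-114671095 (Atg7) and chr16:45158679-45158828 (Atg3), each on the plus strand.
Atg5: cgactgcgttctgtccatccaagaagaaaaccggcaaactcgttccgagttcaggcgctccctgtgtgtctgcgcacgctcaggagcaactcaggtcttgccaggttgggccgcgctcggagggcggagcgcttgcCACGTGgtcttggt
Atg7: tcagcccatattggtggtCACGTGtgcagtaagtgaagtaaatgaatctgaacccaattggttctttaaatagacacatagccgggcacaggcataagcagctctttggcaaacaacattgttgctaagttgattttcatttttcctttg
Atg3: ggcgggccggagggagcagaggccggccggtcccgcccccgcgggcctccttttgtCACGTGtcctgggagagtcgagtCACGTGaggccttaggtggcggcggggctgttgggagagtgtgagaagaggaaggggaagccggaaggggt
The match starts 14 bases before the gene start in Atg5 and 132 bases before it in Atg7, and Atg3 holds matches 94 and 71 bases before it. The XBP1 and ATF6 element core TGACGTGG (in 0.676% of all windows) and the ATF4 element TGATGCAA (0.895%) occurred in none of the 7. The antioxidant response element core TGACNNNGC (12.4% of all windows) occurred in the Map1lc3b window. A match is a stretch of letters and not a shown binding site, and the E-box core alone does not name the protein that binds it. Of the 3 genes with the E-box core, Atg7 and Atg3 had their highest mean in plasma cells and their lowest in plasmablasts. Atg7 was below background in plasmablasts, and Atg3 was not called between plasmablasts and naive B cells. Atg5 had its highest mean in plasmablasts and its lowest in naive B cells.

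Map1lc3b encodes LC3B, the ATG8 protein most used to mark autophagosomes. Its probe (ILMN_1260033) read 9.94 and 10.27 in plasma cells, 9.41, 9.38 and 9.54 in plasmablasts, and 9.62 and 9.36 in naive B cells. Both plasma cell arrays lay above all others, while plasmablasts and naive B cells overlapped. In plasma cells Map1lc3b rose 1.58-fold over plasmablasts (log2 difference 0.66, 0.36 to 0.96, adjusted p = 0.00199) and 1.53-fold over naive B cells (0.61, 0.28 to 0.94, adjusted p = 0.0051). Both calls held in all 19 alternative settings. Plasmablasts and naive B cells differed by -0.05 (-0.35 to 0.25, adjusted p = 0.756). Of the 9 macrophage and monocyte markers, all were called lower in plasmablasts than in naive B cells. In plasma cells 8 were higher and none lower than in plasmablasts, and 2 were higher and 6 lower than in naive B cells. Their part in the Map1lc3b differences was not tested.

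Gabarap, a second ATG8 gene, had a bright probe (ILMN_1251333). It read 13.77 and 13.97 in plasma cells, 13.46, 13.36 and 13.57 in plasmablasts, and 13.69 and 13.60 in naive B cells, without overlap. In plasma cells Gabarap was called 1.32-fold higher than in plasmablasts (log2 difference 0.40, 0.16 to 0.65, adjusted p = 0.00788). The call was lost with 75th percentile scaling (0.16, adjusted p = 0.156) and without plasma cell replicate 2 (0.31, adjusted p = 0.0586). Against naive B cells the difference was 0.22 in plasma cells (-0.04 to 0.49, adjusted p = 0.112) and -0.18 in plasmablasts (-0.42 to 0.06, adjusted p = 0.156). Gabarapl2, which encodes GATE-16, was not tested, since its 2 probes (ILMN_1219431 and ILMN_2642197) were not above background on any array. Its first probe came nearest on a naive B cell array, with a detection p of 0.0251.

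Sqstm1 encodes p62, which binds ubiquitinated cargo and ATG8 proteins and is itself broken down by autophagy. Its probe (ILMN_2710705) read 11.69 and 11.45 in plasma cells, 11.48, 11.53 and 11.48 in plasmablasts, and 11.82 and 11.84 in naive B cells. Plasma cells overlapped plasmablasts, and the naive B cell arrays were the highest. In plasmablasts Sqstm1 was called 1.26-fold lower than in naive B cells (log2 difference -0.33, -0.56 to -0.11, adjusted p = 0.0139). The call was lost with 75th percentile scaling (-0.11, adjusted p = 0.383) and without either naive B cell array (adjusted p = 0.0555 and 0.0636). In plasma cells the difference from naive B cells was -0.26 (-0.51 to -0.01, adjusted p = 0.0568, from 0.0147 to 0.513 over the alternatives), and plasma cells differed from plasmablasts by 0.07 (-0.15 to 0.30, adjusted p = 0.504).

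**Figure D3:**
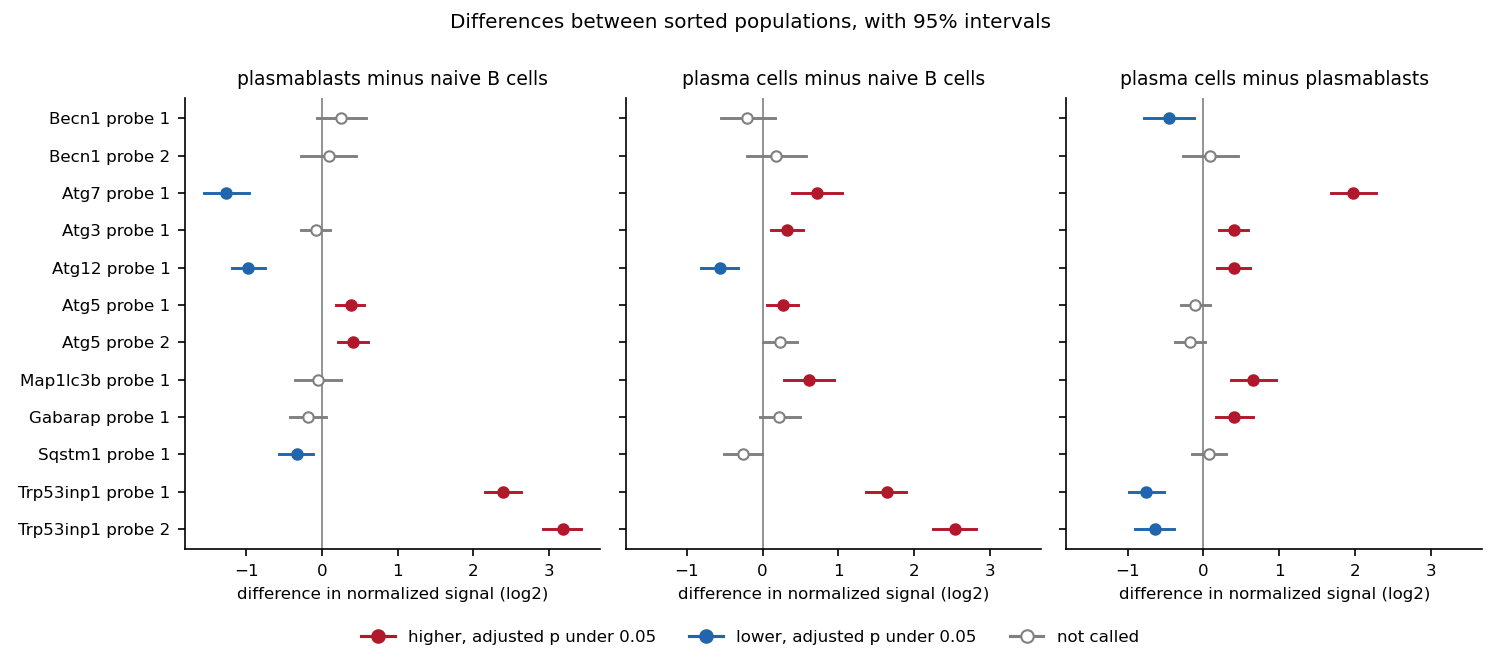
Log2 differences with 95% confidence intervals for every tested probe of the autophagy genes in the 3 comparisons (1 panel each, called differences filled). Trp53inp1 lies farthest from 0 in plasmablasts against naive B cells (2.39 and 3.18), and the Atg7 values that involve plasmablasts rest on a level below background.

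The groups did not overlap for 8 of the 9 genes in each comparison. Over all genes this held for 82.9% in plasmablasts against naive B cells. For plasma cells it held for 86.0% against naive B cells and 82.8% against plasmablasts. Called differences of at least 2-fold by the fitted values were Trp53inp1 and Atg7 in plasmablasts against naive B cells, where 33.0% of all genes had one. In plasma cells they were Trp53inp1 against naive B cells (31.2% of all genes) and Atg7 against plasmablasts (28.2%). As a bound, the Atg7 difference was at least 2.13-fold in plasma cells against plasmablasts and at least 1.29-fold in plasmablasts against naive B cells.

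The patterns of the genes over the 7 arrays were compared by the root mean square difference of log2 values, each gene centred on its own mean. The nearest pair of autophagy genes was Atg3 and Gabarap, at 0.0867, followed by Map1lc3b and Gabarap at 0.161. These genes share the order of plasma cells above the other groups. Atg5 was nearest to Becn1 (0.221) and Atg12 to Sqstm1 (0.291). Atg7 (0.65 to Map1lc3b) and Trp53inp1 (0.841 to Atg5) had no close match among the autophagy genes. Other genes on the array were nearer to each of them: Ndufv3 and Mindy1 to Atg5 (0.0433 and 0.0463), Smagp and Ptprs to Atg7 (0.0822 and 0.0927), and Wbp1l and Plekhb2 to Atg3 (0.0485 and 0.0508). The closest to Atg12 were Smarcd2 and Rnf135 (0.044 and 0.0582), and to Becn1 Ireb2 and Ppp6c (0.0742 and 0.0766). For Sqstm1 they were Ncbp3 and Ppp2r1a (0.0496 and 0.0552), for Map1lc3b Sec24b and Ndfip2 (0.0617 and 0.081), and for Gabarap Atp6v0e and Vps35l (0.0611 and 0.0613). Alg14 and Dclre1b were the closest to Trp53inp1 (0.0676 and 0.0757). With 3 groups on 7 arrays many genes share a pattern, so such nearness is a description.

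The rest of the pathway was read through 93 further genes in 12 lists by role, of which 71 were tested. These lists were also chosen with earlier results of these data known. Between plasmablasts and naive B cells 19 were called higher and 33 lower (73.2% of them, against 72.5% of all genes), with a median log2 difference of -0.13. Between plasma cells and naive B cells 24 were higher and 19 lower (60.6%, against 70.4%), with a median of 0.11. Between plasma cells and plasmablasts 26 were higher and 12 lower (53.5%, against 74.3%), with a median of 0.15 where that of all genes was -0.22. With values below background set to their bounds these medians were -0.11, 0.05 and 0.10. The 26 higher genes include Tfeb and the 12 lower ones include Sesn3, each of which was below background in both populations.

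**Figure D4:**
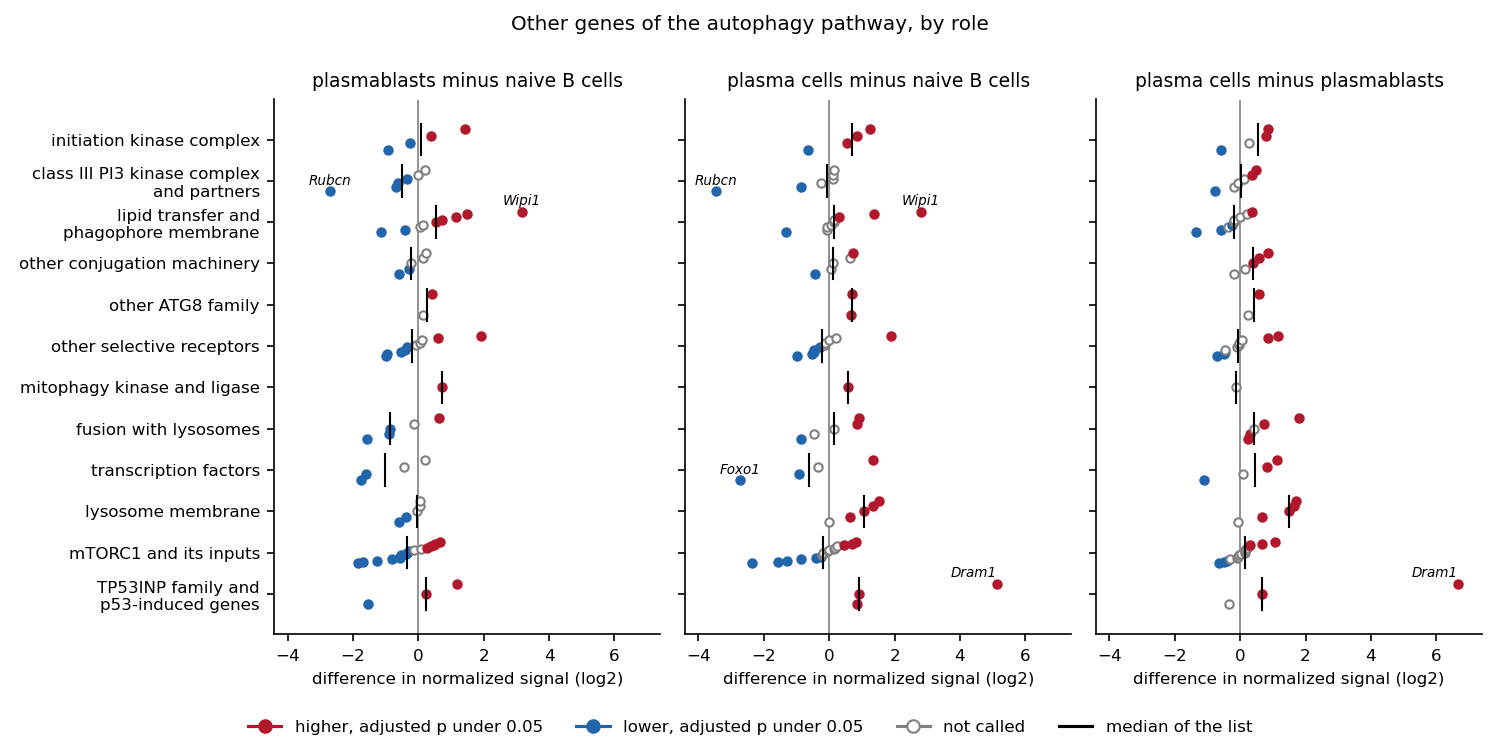
Log2 differences of the 71 further autophagy pathway genes by role list in the 3 comparisons, each point 1 gene (filled where called), with a black line at the median of each list. The 5 lysosome membrane genes have medians of 1.48 in plasma cells against plasmablasts, 1.05 in plasma cells against naive B cells and -0.03 in plasmablasts against naive B cells.

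Counts of single lists are to be read against the same shares of all genes, and no list was tested against them. Of the 4 tested genes of the initiation kinase complex, 3 were higher and 1 lower in plasma cells than in naive B cells, and 2 were higher and 2 lower in plasmablasts. All 4 were thus called in both comparisons, where 70.4% and 72.5% of all genes were. Ulk1, the kinase that starts autophagy, read 8.63 and 8.98 in plasma cells, 7.96, 7.93 and 7.97 in plasmablasts, and 7.52 and 7.58 in naive B cells. It rose 2.39-fold in plasma cells over naive B cells (adjusted p = 3.7e-05). Its paralog Ulk2 fell 1.92-fold in plasmablasts against naive B cells (adjusted p = 0.000194), and the scaffold Atg13 rose there 2.71-fold (adjusted p = 1.22e-05).

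Of the 6 tested genes around the class III phosphatidylinositol 3-kinase, none was higher and 4 were lower in plasmablasts than in naive B cells, and none was higher and 2 were lower in plasma cells. These calls are 66.7% of the list in plasmablasts, against 72.5% of all genes, and 33.3% in plasma cells, against 70.4%. Rubcn, whose product Rubicon inhibits this kinase complex and the maturation of autophagosomes, had the widest difference. It read 7.86 and 8.12 in plasma cells, 8.72, 8.66 and 8.90 in plasmablasts, and 11.38 and 11.53 in naive B cells. Rubcn thus fell 11.1-fold in plasma cells (adjusted p = 1.82e-07) and 6.47-fold in plasmablasts (adjusted p = 3.35e-07) against naive B cells. Uvrag, a Beclin 1 partner, fell 1.82-fold in plasma cells (adjusted p = 0.000292) and 1.59-fold in plasmablasts (adjusted p = 0.000687) against naive B cells. The list's falls thus include both an inhibitor and a partner of the complex.

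Among 9 genes of lipid transfer and the phagophore membrane, 5 were higher and 2 lower in plasmablasts than in naive B cells (77.8% called, against 72.5% of all genes). Wipi1, which binds the lipid made by that kinase, read 9.12 and 9.24 in plasma cells, 9.53, 9.26 and 9.84 in plasmablasts, and 6.33 and 6.41 in naive B cells, where it was not above background. It was at least 6.30-fold higher in plasma cells (adjusted p = 2.49e-06) and at least 8.09-fold higher in plasmablasts (adjusted p = 6.01e-07) than in naive B cells. Without background correction these log2 differences were 1.73 and 2.04. Vmp1, an ER membrane protein of phagophore formation, rose 2.56-fold in plasma cells (adjusted p = 1.45e-05) and 2.21-fold in plasmablasts (adjusted p = 1.82e-05) over naive B cells. The lipid transfer gene Atg2a fell 2.49-fold in plasma cells against naive B cells (adjusted p = 0.000255).

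Of the 5 other conjugation genes, Atg16l1, whose product carries the ATG12-ATG5 conjugate to the membrane, fell 1.50-fold in plasmablasts (adjusted p = 0.000556) and 1.34-fold in plasma cells (adjusted p = 0.00586) against naive B cells. None of the 5 was higher and 2 were lower in plasmablasts than in naive B cells (40.0% called, against 72.5% of all genes). Of the ATG8 family, Gabarapl1 rose 1.64-fold in plasma cells over naive B cells (adjusted p = 0.00244) and 1.50-fold over plasmablasts (adjusted p = 0.00403). Map1lc3a rose 1.58-fold in plasma cells over naive B cells (adjusted p = 0.000987).

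Selective receptors moved in both directions, with 1 of 10 higher and 5 lower in plasma cells than in naive B cells, and 2 higher and 5 lower in plasmablasts. These calls are 60.0% of the list in plasma cells, against 70.4% of all genes, and 70.0% in plasmablasts, against 72.5%. Ccpg1, an ER-phagy receptor induced by ER stress, read 11.58 and 11.65 in plasma cells, 11.56, 11.58 and 11.84 in plasmablasts, and 9.88 and 9.59 in naive B cells. It rose 3.68-fold in plasma cells (adjusted p = 7.02e-06) and 3.80-fold in plasmablasts (adjusted p = 2.68e-06) over naive B cells. Retreg1, which encodes the ER-phagy receptor FAM134B, fell by 1.00 log2 units in plasmablasts against naive B cells (adjusted p = 0.000864) and rose 1.82-fold in plasma cells over plasmablasts (adjusted p = 0.00203). Bnip3l, a mitophagy receptor, fell 1.96-fold in plasmablasts against naive B cells (adjusted p = 2.54e-05) and rose 2.25-fold in plasma cells over plasmablasts (adjusted p = 1.18e-05). It averaged 12.34 in plasma cells and 12.15 in naive B cells. All 7 tested red cell and platelet markers were called lower in plasmablasts, and also in plasma cells, than in naive B cells. The part of red cell RNA in the Bnip3l differences was not tested. Of the mitophagy kinase and ligase only Pink1 was tested, and it was called 1.64-fold higher in plasmablasts than in naive B cells (adjusted p = 0.00813). In plasma cells its difference from naive B cells was 0.59 (adjusted p = 0.0315), and 0.24 without naive B cell replicate 1 (adjusted p up to 0.18 over the alternatives).

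Most genes of the lysosome membrane and of fusion with lysosomes were called higher in plasma cells than in plasmablasts. Of 5 lysosome membrane genes, 4 were higher and none lower in plasma cells than in plasmablasts, and the same counts held against naive B cells. Over all genes 28.5% were called higher in plasma cells than in plasmablasts and 32.9% higher than in naive B cells, and the lists were not tested against these shares. Lamp2, a main protein of that membrane, read 13.33 and 13.46 in plasma cells, 11.91, 11.88 and 11.97 in plasmablasts, and 11.85 and 11.89 in naive B cells. It rose 2.79-fold in plasma cells over plasmablasts (adjusted p = 2.28e-06) and 2.88-fold over naive B cells (adjusted p = 2.73e-06). Lamp1 rose 3.11-fold over plasmablasts (adjusted p = 1.66e-06) and Scarb2, the receptor that carries an enzyme to lysosomes, 3.29-fold (adjusted p = 7.27e-07). Of the 5 tested fusion genes 4 were higher and none lower in plasma cells than in plasmablasts. The fusion proteins' genes Vamp8 and Snap29 rose 3.46-fold (adjusted p = 1.4e-06) and 1.66-fold (adjusted p = 0.000156) there, and Stx17 was not called (0.41, adjusted p = 0.0608). Against naive B cells 2 fusion genes were higher and 1 lower in plasma cells (60.0% called, against 70.4% of all genes). In plasmablasts 1 was higher and 3 lower (80.0%, against 72.5%). Vamp8 was 1.87-fold higher in plasma cells than in naive B cells (adjusted p = 0.000109), but Snap29 was 1.81-fold lower (adjusted p = 0.00011). In plasma cells against plasmablasts 8 of the 9 macrophage and monocyte markers were also called higher and none lower. Against naive B cells 2 of the 9 were higher and 6 lower in plasma cells, and their part in these differences was not tested.

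Of the transcription factors, Tfeb, a driver of lysosome and autophagy genes, read 6.10 and 6.17 in plasma cells, 5.20, 5.38 and 5.33 in plasmablasts, and 7.03 and 7.06 in naive B cells. No plasma cell or plasmablast array was above background. It was at least 1.71-fold lower in plasma cells (adjusted p = 7.13e-05) and at least 1.30-fold lower in plasmablasts (adjusted p = 7.82e-07) than in naive B cells. Its relative Tfe3 read 9.44 and 9.49 in plasma cells, 8.45, 8.45 and 8.12 in plasmablasts, and 8.21 and 8.07 in naive B cells. Tfe3 rose 2.18-fold in plasma cells over plasmablasts (adjusted p = 6.75e-05) and 2.51-fold over naive B cells (adjusted p = 4.37e-05). Foxo1, which also drives autophagy genes in other tissues, fell 6.59-fold in plasma cells (adjusted p = 4.09e-06) and 3.02-fold in plasmablasts (adjusted p = 4.52e-05) against naive B cells. Of the 17 tested genes of mTORC1, the kinase complex that holds autophagy down, and its inputs, 3 were higher and 6 lower in plasma cells than in naive B cells, and 5 higher and 10 lower in plasmablasts. These calls are 52.9% of the list in plasma cells, against 70.4% of all genes, and 88.2% in plasmablasts, against 72.5% of all genes. Sesn1, a p53 target and inhibitor of mTORC1, fell 2.96-fold in plasma cells (adjusted p = 2.14e-05) and 3.57-fold in plasmablasts (adjusted p = 3.83e-06) against naive B cells.

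The 3 relatives of Trp53inp1 in family or in induction by p53 were tested beside it. Trp53inp2 rose 1.79-fold in plasma cells (adjusted p = 0.00142) and 2.27-fold in plasmablasts (adjusted p = 9.65e-05) over naive B cells, by log2 differences of 0.84 and 1.19, or 0.45 and 0.67 without background correction. Dram1, a p53-induced lysosomal membrane protein, read 12.21 and 12.43 in plasma cells, 5.79, 5.36 and 5.81 in plasmablasts, and 7.11 and 7.27 in naive B cells. No plasmablast array was above background. Dram1 was at least 50.3-fold higher in plasma cells than in plasmablasts (adjusted p = 1.45e-08) and 35.1-fold higher than in naive B cells (adjusted p = 9.88e-08). In plasmablasts it was at least 1.43-fold lower than in naive B cells (adjusted p = 3.25e-05). These folds depend on the background correction, without which the log2 differences were 4.88 in plasma cells against plasmablasts, 4.24 in plasma cells against naive B cells and -0.64 in plasmablasts against naive B cells, all called. Of the 9 macrophage and monocyte markers, 8 were higher and none lower in plasma cells than in plasmablasts, but 2 were higher and 6 lower than in naive B cells. The neutrophil marker sum was also highest in plasma cells, although 4 of its 8 markers were not above background there. The part of macrophages, monocytes and neutrophils in the Dram1 differences was not tested. Dram2 rose 1.58-fold in plasma cells over plasmablasts (adjusted p = 0.000234). Trp53inp1 and Trp53inp2 thus had their highest mean in plasmablasts, although Trp53inp2 was not called between plasma cells and plasmablasts (-0.35, adjusted p = 0.0528). Dram1 and Dram2 had theirs in plasma cells.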

How the data were processed

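RNA from 7 sorted samples was measured on 1 array each. The deposited scanner table held a probe intensity that was not normalized between arrays, and the authors' software gave a detection p-value beside each, per the file headers. Signals were exported with GenomeStudio 2011.1, per the submitters' processing notes. The authors' quantile normalized intensity table, within 0.0119 log2 units of quantile normalized scanner values, served as an alternative.

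In R 4.3.3 with limma 3.58.1, background was estimated from the detection p-values (neqc model), an offset of 16 added, the arrays quantile normalized and log2 taken. Of 25697 probes, 23978 had 1 gene symbol, 1719 had none and none had several; 23962 names came through Entrez number from the RefSeq table of GRCm38.p6. Named probes with detection p under 0.01 on at least 2 arrays were tested (10113 probes), which Atg7 passed through its plasma cell and naive B cell arrays. A model of 3 group means over all 7 arrays (residual degrees of freedom 4, prior 3.94) was tested with eBayes, with Benjamini-Hochberg adjustment over all probes and a threshold of 0.05. The brightest tested probe stood for each gene, and every probe of the 10 genes is shown. Some pathway genes had more probes, such as Vmp1 (5 probes) and Lamp2 (4 probes). Only the brightest is reported for them, so agreement between their probes is not shown. Where all arrays of a group were below background, folds are bounds measured up to the lowest signal above background on those arrays. The p-values beside them are those of the fitted differences. Levels were compared between groups and never between probes. The number of arrays limits the precision.

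The 10 genes and all lists were chosen with earlier results of these data known. All 10 genes were named, and from each pathway list up to 3 called genes by size per comparison, with the 2 nearest genes of each member. Protein sequences were not used here. Promoter windows came from RefSeq (GRCm38.p6). The fit was also run on simulated data in which few probes were changed. In these data most genes were called, so that run cannot check the scaling. The labels do not say whether the replicate number pairs the samples. Correlations of deviations from the group mean between arrays of the same number ran from -0.0382 to 0.162. In a group of 2 arrays the deviations mirror each other, so these values cannot decide whether the samples were paired. Alternatives changed the background correction, offset, scaling, probe filter, probes per gene, samples in the fit, prior and replicate block, used the authors' table, or left out each array. The series' methylation sequencing was not analysed here.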

Additional observations from a re-analysis of the deposited data

How the results depend on the processing

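Over 19 alternatives per comparison the count of autophagy genes called was 4 to 6 for plasmablasts against naive B cells, 4 to 8 for plasma cells against naive B cells and 5 to 7 for plasma cells against plasmablasts. In the same order, leaving out 1 array in turn gave 4 to 5, 4 to 6 and 5 to 7. With the replicate number as a block the counts were 5, 5 and 6. The pathway lists gave 40 to 53, 36 to 48 and 33 to 47 called genes. Of 36 differences of the tested probes, 18 kept direction and side of the threshold in every alternative that gave a value, those of Trp53inp1, Atg7 and Atg12 among them; of 672 values 14 lost and 22 gained a call and 11 changed sign. No value that changed sign was called in either setting. With 75th percentile scaling Atg3 was 0.01 (adjusted p = 0.951) and Gabarap 0.13 (0.239) between plasmablasts and naive B cells, and Sqstm1 was -0.05 (0.648) between plasma cells and plasmablasts. With cyclic loess Becn1 was 0.02 (0.896) in plasma cells against naive B cells, and Atg5 was 0.09 (0.351) and 0.04 (0.729) by its 2 probes against plasmablasts. Without 1 array, the second Becn1 probe ran from -0.08 to 0.26 for plasmablasts against naive B cells, and in plasma cells from -0.01 to 0.38 against naive B cells and -0.10 to 0.28 against plasmablasts. Likewise Map1lc3b ran from -0.18 to 0.08 between plasmablasts and naive B cells, and Sqstm1 from -0.05 to 0.19 between plasma cells and plasmablasts. The causes were not tested. Requiring signal above background on all 7 arrays left Atg7 untested by construction. For the pathway genes named, 79 of 90 differences kept direction and call in every alternative, 32 of 1672 values lost a call and none changed sign. Signal near background limits Atg7, Tfeb, Dram1 in plasmablasts and Wipi1 in naive B cells, and Gabarapl2 could not be measured.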
